A study of Mus musculus with 4 samples.

Results

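Gene expression in the gastric corpus epithelium of mice 2.5 days after tamoxifen was set against that of vehicle-treated mice at the same time. The comparison used 2 of the 4 arrays of the series, which were chosen by their treatment and time labels and are the only pair matched in time. Both are Affymetrix mouse genome arrays, which carry 1 probe set or several for each gene. Values are log2 expression after RMA, so that a difference of 1 is 2-fold. Where a gene had several probe sets, the brightest on average across all 4 arrays stood for it. This gave 18193 genes, 12295 of which were called expressed because the brighter of the 2 arrays was at or above its own median over all probe sets.

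All mice were wild type and 6 weeks old. Treated mice received tamoxifen into the peritoneum at 5 mg per 20 g of body weight, with the stated aim of inducing SPEM (spasmolytic polypeptide-expressing metaplasia), and vehicle was 10% ethanol in 90% sunflower seed oil. The other arrays hold tamoxifen at 12 hours and at 4.5 days, and their levels are given only as values beside those at 2.5 days, since every comparison with vehicle shares the same vehicle array. Each array holds RNA pooled from 3 mice, so the comparison has no replicates, no test and no measure of the spread between mice. Injection lasted 1 or 3 days and the strains were FVB/N, BALB/c and C57BL/6, but neither is tied to an array by the labels.

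Acid is secreted in the corpus, the body of the stomach. Its glands hold parietal cells, which secrete acid through a potassium-exchanging proton pump, chief cells, which store pepsinogen in granules, mucous neck cells, and a dividing zone near the neck, with pit cells lining the surface. SPEM is known as a response of these glands to injury in which parietal cells are lost and cells at the gland base carry mucous neck transcripts. Tamoxifen is a selective modulator of the estrogen receptor.

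Genes of parietal acid secretion and several of zymogen storage were lower at 2.5 days than in vehicle. Genes of DNA replication, mitosis, nucleolar growth and the interferon response were higher. Of the macrophage and monocyte markers 8 of 16 were 2-fold higher, but not the receptor genes Csf1r, Adgre1, Cx3cr1 and Ccr2. The proton pump subunit gene Atp4b was 3.33-fold lower. Mcm5, a subunit of the replicative helicase, was 3.79-fold higher. Irf7, the transcription factor that amplifies the interferon response, was 4.26-fold higher. Genes of surface mucous cells and most genes of the endoplasmic reticulum stayed close to their vehicle levels.

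Of the 12295 expressed genes, 408 were higher by 2-fold or more (3.32%) and 238 lower by as much (1.94%), 5.25% in both directions together. At least 4-fold higher were 35 genes (0.285%) and at least 4-fold lower 39 genes (0.317%). Over all 18193 genes measured the shares were 2.33% higher and 1.36% lower, and these are the background for the gene lists below, which count every measured member. The median difference was 0.02 over expressed genes and -0.02 over all genes. Higher genes made up 63.2% of those past 2-fold, but 75.8% (560 higher and 179 lower) when the arrays were centred on their hybridisation controls, which moved every difference by 0.13. That centring turned the sign of 10 list medians, the largest of them 0.12 in size. Among the genes close to the line were Mlkl, just past it, and Igtp, just short of it, on the higher side, and Cdkn2b, just past it, and Synm, just short of it, on the lower side.

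Technical spread could be gauged only within and between the 2 arrays. The 18 hybridisation control probe sets differed by -0.13 ± 0.08 (SD over probe sets), with a largest size of 0.31, and the 27 poly-A controls by 0.04 ± 0.17, with a largest size of 0.65. The lead of the 3′ over the 5′ probe set of Gapdh was 0.51 on the vehicle array and 0.45 on the tamoxifen array, and that of actin 0.999 and 0.951. Of the higher genes, 132 had several bright probe sets, which all pointed the same way in 125 and all passed 2-fold in 75. Of the lower genes, 81 had several, which all pointed the same way in 79 and all passed 2-fold in 41. These values do not include variation between mice.

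The higher genes were on the whole dimmer than the lower ones. The median level of the 408 higher genes was 6.56 on the vehicle array and 7.92 on the tamoxifen array, and 87 of them were under the vehicle array's median. The 238 lower genes had a median level of 8.58 in vehicle and 7.16 after tamoxifen. Among 105 expressed genes whose brighter array lay above 13, none was 2-fold higher and 8 were 2-fold lower. Between 7 and 9, 211 of 5249 genes were higher and 100 were lower.

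**Figure D1:**
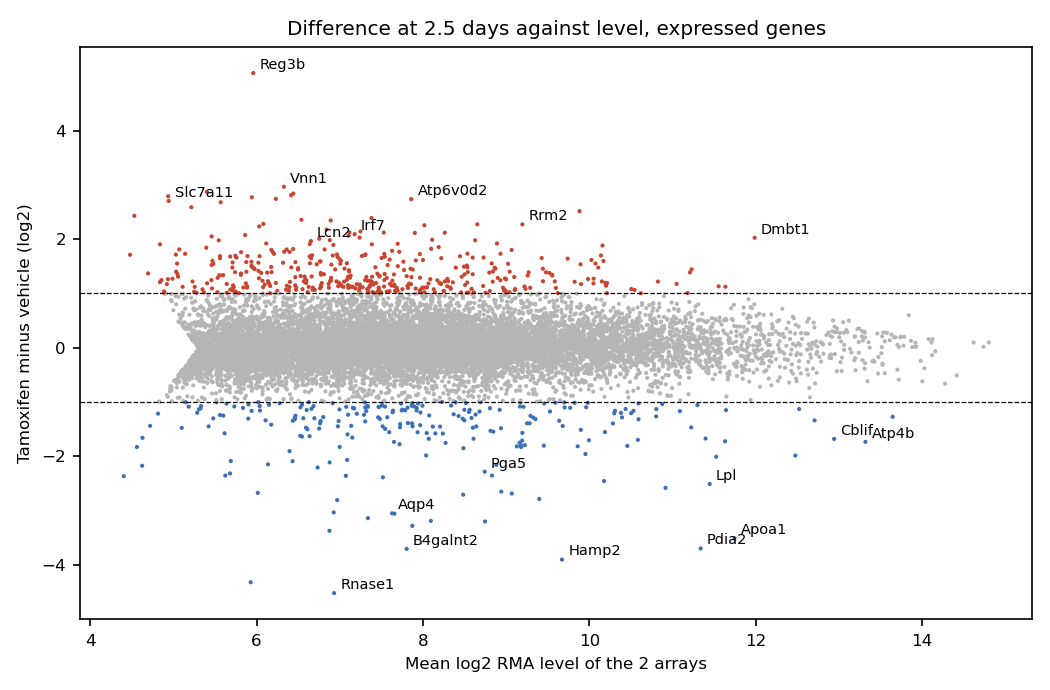
Each point is 1 of the 12295 expressed genes, with the mean log2 RMA level of the vehicle and tamoxifen arrays at 2.5 days on the x axis and the log2 difference, tamoxifen minus vehicle, on the y axis; the dashed lines mark 2-fold. The 408 red points lie at least 2-fold higher and the 238 blue points at least 2-fold lower, and at the bright end only blue points lie past the line.

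Several of the largest higher differences were of genes for secreted defence and inflammatory proteins. Reg3b, an antibacterial lectin of the gut, had levels of 3.43 in vehicle and 8.49 after tamoxifen, a difference of 5.06, and its other bright probe set differed by 2.68. Its level was higher still at 12 hours (10.94) and lower at 4.5 days (6.08). Where a pair of levels is given for a gene from here on, the vehicle array comes before the tamoxifen array at 2.5 days. A level under its array's median (5.31 in vehicle and 5.30 after tamoxifen), such as that of Reg3b in vehicle, may not be above background, and no fold is given against it. The related Reg1 was also highest at 12 hours, with 3.92 in vehicle, 11.20 at 12 hours, 6.51 at 2.5 days and 6.68 at 4.5 days. The 12-hour array also carried pancreatic acinar transcripts at far higher levels than the 2.5-day pair: the acinar marker list had a median difference from vehicle of 6.86 at 12 hours and -0.26 at 2.5 days. Reg1 and Reg3b are also made by acinar cells, and the part of acinar RNA in their 12-hour levels was not tested.

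Some inflammatory genes were higher at 2.5 days than at 4.5 days, and of these Chil3, S100a8 and Saa3 were highest at 2.5 days. Chil3, a chitinase-like lectin of macrophages, read 5.02 in vehicle, 6.47 at 12 hours, 7.86 at 2.5 days and 5.28 at 4.5 days. S100a8, a calcium-binding protein of neutrophils and activated macrophages, read 4.56, 5.92, 7.33 and 5.27 on the same arrays. Both were near their vehicle level by 4.5 days. Saa3, an acute-phase protein, read 7.2, 9.16, 9.32 and 7.92. Lcn2, which binds bacterial siderophores, read 5.67, 7.74, 7.63 and 5.14. Saa3 and Lcn2 were thus high by 12 hours and closer to vehicle at 4.5 days.

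Others kept a high level at 4.5 days. Vnn1, a pantetheinase, read 4.84 in vehicle, 7.81 at 2.5 days and 8.80 at 4.5 days. Il1rn, the receptor antagonist that blocks interleukin-1, read 3.96, 6.84 and 7.04, although its 3 bright probe sets differed from vehicle by between 0.27 and 2.87 at 2.5 days. Matrix metalloproteinase genes formed a group: Mmp12, the macrophage elastase, read 5.01 in vehicle and 7.82 at 2.5 days. The collagenase gene Mmp13 read 4.23, under the array median, and 6.91. Timp1, an inhibitor of these proteases, read 6.18 and 8.57. In the list of matrix and protease genes 5 of 18 were 2-fold higher and none lower (median 0.29), and the other 2 were Mmp3 (1.69) and Mmp10 (1.11), while Mmp2 and Mmp14 differed by 0.15 and 0.32.

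Single genes of other roles also stood among the 40 largest. Slc7a11, the cystine importer, read 3.59 in vehicle and 6.29 after tamoxifen. Psat1, an enzyme of serine synthesis, read 6.47 and 8.59, 4.35-fold higher. Ereg, the EGF receptor ligand epiregulin, read 7.11 and 9.11, and was at 6.61 at 12 hours. Dmp1, a phosphoprotein of bone and dentin matrix, read 4.94 and 7.22, and Prg4, the joint lubricant lubricin, read 5.75 and 7.93. The gene for the d2 subunit of the V-type ATPase, Atp6v0d2, known from osteoclasts and macrophages, read 6.49 and 9.23, and its bright probe sets differed by 2.74 and 3.84.

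**Figure D2:**
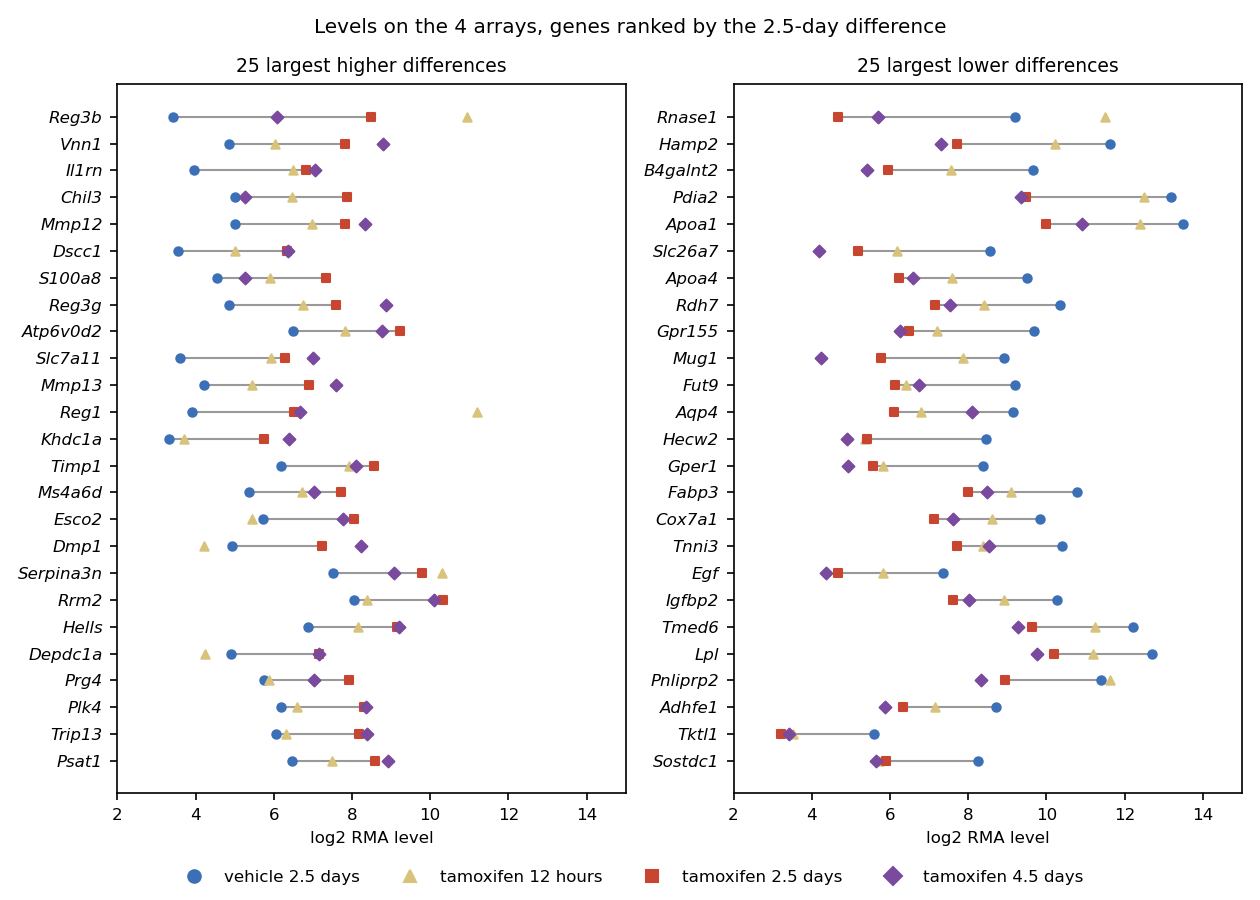
Log2 RMA levels of the 25 genes with the largest higher (left) and lower (right) differences at 2.5 days, with 1 point for each of the 4 arrays and a line joining vehicle and tamoxifen at 2.5 days. The 12-hour points of Reg3b, Reg1 and Rnase1 lie outside that line, and those of most other genes lie on it.

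The largest lower differences were of genes of many roles. Rnase1, a secreted ribonuclease, read 9.19 in vehicle and 4.67, under the array median, after tamoxifen, against 11.49 at 12 hours. Pdia2, a disulfide isomerase known from pancreas and stomach, read 13.19 and 9.49. Pnliprp2, a lipase, read 11.40 and 8.95, and was 8.34 at 4.5 days. All of these are also pancreatic genes, and of the acinar markers Ctrb1 was dim on both arrays of the pair, at 5.31 and 5.44, whereas Clps, colipase, was bright on both, at 14.67 and 14.16. The acinar list of 10 held no member past 2-fold at 2.5 days (median -0.26), with 5 members under the expression filter. A further list of pancreatic-type secretory genes had 8 of 13 members 2-fold lower (median -1.39). It was drawn up after the values were seen and includes Rnase1, Pdia2 and Pnliprp2.

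Apoa1 and Apoa4, apolipoproteins of secreted lipid particles, were lower together. Apoa1 read 13.50 in vehicle and 9.99 after tamoxifen, 11.4-fold lower, with all 4 bright probe sets between -3.59 and -3.51. Apoa4 read 9.51 and 6.23. Lpl, which releases fatty acids from such particles, read 12.70 and 10.19, and Scd1, which desaturates fatty acids, 10.01 and 7.65. However, Scd1 differed by -1.30 as the mean over its probe sets and by -0.24 on the probe set whose absolute difference was the median. Here and below, where a gene had an even number of probe sets, the smaller of the middle pair was taken. For a gene with 2, such as Scd1, that is the probe set with the smaller absolute difference. Ttr, the carrier of thyroid hormone and retinol-binding protein, read 12.53 and 10.52, and Rdh7, a retinol dehydrogenase, 10.35 and 7.14. Albumin (Alb), a hepatocyte marker, was dim on both arrays at 4.92 and 4.54. The apolipoprotein and lipid transport list of 18 had 3 genes 2-fold lower, none higher and 8 above 0 (median -0.19). Apoe differed by 0.74. Apoa1 and Apoa4 are also in the intestinal enterocyte list of 11, where 3 genes were 2-fold lower and 2 lay above 0 (median -0.26). The other lower gene there was Fabp2 (-1.18). The part of such tissue in these differences was not tested.

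Hamp2, a copy of the iron hormone gene hepcidin, read 11.62 in vehicle and 7.72 after tamoxifen, a difference of -3.91, against -2.18 as the mean over its probe sets and -0.46 by its probe set of median absolute difference. Hamp itself read 7.11 and 5.76, but its probe set of median absolute difference pointed the other way (0.48), and near-identical copies such as these cannot be told apart with certainty by their probes. Among glycosyltransferases that finish mucin sugars, B4galnt2 read 9.66 and 5.95 and Fut9 9.19 and 6.13. They were the only members of the 16-gene mucin glycosylation list past 2-fold, and the list's median was 0.10. Gper1, a membrane receptor that responds to estrogen, read 8.37 and 5.56, with bright probe sets at -2.81 and -2.60, and was already at 5.81 at 12 hours. The nuclear estrogen receptor genes Esr1 (4.81 and 5.03) and Esr2 (4.57 and 4.33) were below the expression filter, and the estrogen list of 13 had a median of -0.02.

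Of 21 measured parietal genes, 11 were at least 2-fold lower and none 2-fold higher, with a median of -1.05. The pump subunits were lower together: Atp4a read 13.38 in vehicle and 12.04 after tamoxifen, and Atp4b 14.19 and 12.45. Channels and exchangers spanned a wide range. The chloride and bicarbonate exchanger Slc26a7 read 8.56 and 5.19, the latter under the array median, and the water channel Aqp4 9.15 and 6.10. The potassium channel genes Kcnj16 (9.96 and 7.80), Kcne2 (10.90 and 9.69), Kcnq1 (9.99 and 9.03) and Kcnj15 (10.87 and 10.05) gave smaller differences. Slc4a2, the basolateral anion exchanger, read 10.65 and 9.14.

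Receptors for the stimuli of acid secretion were lower as well. Hrh2, the histamine receptor, read 7.07 in vehicle and 6.02 after tamoxifen. Cckbr, the gastrin receptor, read 7.86 and 6.75, although its probe set of median absolute difference gave 0.24. Some members of the list were close to vehicle, such as the carbonic anhydrase Car2 (13.68 and 13.73) and the cytoskeletal linker Ezr (12.55 and 12.45). The nuclear receptor Esrrg, which acts in parietal cell energy supply, read 10.39 and 10.03. Aqp4 was nearer to vehicle at 4.5 days (8.09), whereas Slc26a7 was lower still (4.19). In RNA from a whole tissue, fewer cells of a type and less RNA per cell cannot be told apart.

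Among chief cell genes, several that encode granule contents were lower. The pepsinogen gene Pga5 read 9.88 in vehicle and 7.60 after tamoxifen, and Pgc, another pepsinogen, 14.28 and 13.01. Cblif, gastric intrinsic factor, read 13.78 and 12.10. Bhlha15 (Mist1), the transcription factor that builds the granule apparatus, read 9.15 and 7.39, but differed by -0.91 as the mean over its probe sets and by -0.06 by its probe set of median absolute difference. These 4 of 10 members were 2-fold lower, the stem-cell receptor gene Lgr5 read 7.06 and 6.92, and Tnfrsf19 read 7.04 and 8.08, the single member 2-fold higher (0.56 as the mean over its probe sets). The gastric lipase gene Lipf stayed under the expression filter on both arrays. The list median was -0.40 at 2.5 days, -0.08 at 12 hours and -1.14 at 4.5 days.

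Mucous neck and SPEM genes did not differ as a block. Of 17 measured, 5 were 2-fold higher and none lower (median 0.57). Beside Mmp12 and Slc7a11, these were Dmbt1, a secreted scavenger glycoprotein (10.97 in vehicle, with a difference of 2.03), Gpx2, a glutathione peroxidase of epithelia (10.51 and 11.90), and Cftr, the chloride channel (6.52 and 7.67). Cftr was no longer past 2-fold as the mean over its probe sets (0.59) or by its probe set of median absolute difference (0.02). The hyaluronan receptor Cd44 read 9.91 and 10.59, the chaperone clusterin gene Clu 13.54 and 14.14, and Wfdc2 8.17 and 8.75. Tff2, the spasmolytic polypeptide that gives SPEM its name, read 14.10 and 13.86, and Gkn3 12.78 and 12.30, both slightly under vehicle. Muc6 is not analysed here.

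The other gland cell types gave few differences. Of 12 surface mucous genes none passed 2-fold (median 0.02): Tff1, the trefoil peptide of pit cells, read 14.73 and 14.75 and Gkn2 14.75 and 14.85, both near the top of the scale, and the mucin gene Muc5ac 13.78 and 13.31. None of 15 endocrine genes passed 2-fold, with Sst, somatostatin, lowest (11.39 and 10.50) and Hdc, the histamine-forming enzyme, highest (8.23 and 8.89). None of 10 tuft cell genes did, and Trpm5, their taste-signal channel, came closest (5.32 and 4.33). Among 20 gastric transcription factors Bhlha15 alone passed 2-fold, by the probe set used and not by the mean (-0.91), and Sox2 (0.30), Gata6 (0.08) and Hnf4a (0.14) stayed near vehicle.

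**Figure D3:**
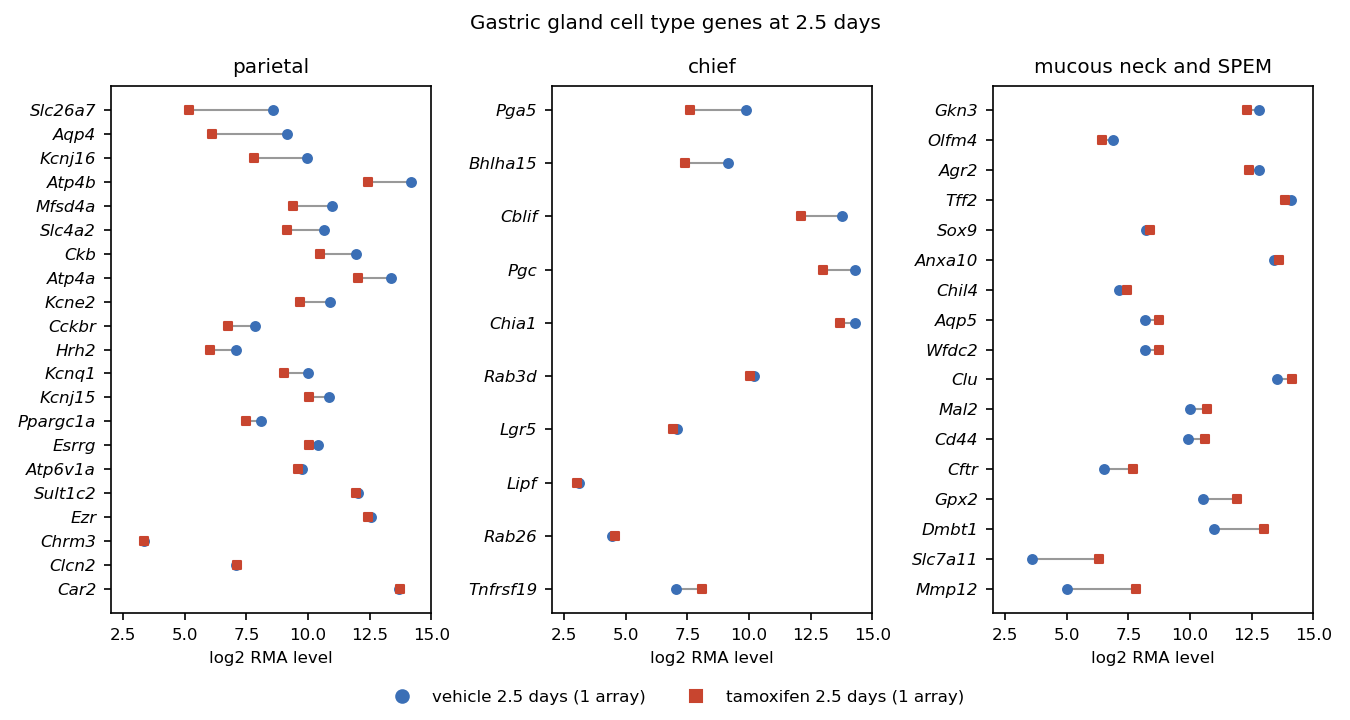
Log2 RMA levels of parietal, chief, and mucous neck and SPEM genes on the vehicle and tamoxifen arrays at 2.5 days, 1 array each, ordered by difference within a panel. The tamoxifen points lie left of vehicle for all but 3 of 21 parietal genes, and right of it for 13 of 17 mucous neck and SPEM genes.

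Many of the higher genes belonged to the cell cycle. They are read here in the order of a division: entry, licensing, synthesis, chromosome structure and segregation. Among cyclins, kinases and E2F factors, 7 of 18 were 2-fold higher and none lower (median 0.86). Ccne2, the S-phase cyclin E2, read 5.15 in vehicle and 7.08 after tamoxifen, and Ccna2, cyclin A2, 8.34 and 9.74. Cdk1, the mitotic kinase, read 7.67 and 9.40. The repressor E2fs were among them, E2f7 at 4.93 and 6.69 and E2f8 at 7.10 and 8.82. E2f8 differed by 0.86 as the mean over its probe sets and by 0.0 by its probe set of median absolute difference. The activator E2f1 read 6.59 and 6.77. E2f3 differed by 1.22, but by 0.67 as the mean over its probe sets and by 0.11 by its probe set of median absolute difference. D-type cyclins differed little, from 0.22 for Ccnd3 to 0.45 for Ccnd1.

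Licensing of replication origins had the widest share of its members past 2-fold among the synthesis lists. Of 19 genes 15 were 2-fold higher and none lower, with a median of 1.19. All 6 subunits of the MCM helicase were included: Mcm5 read 7.93 in vehicle and 9.85 after tamoxifen, and Mcm2, the smallest of the 6 differences, 8.15 and 9.29. The loaders Cdt1 (8.25 and 9.80) and Cdc6 (5.68 and 7.16) were also higher. The origin recognition genes were mixed, with Orc6 at 1.14 but Orc1 at -0.11 and Orc2 at 0.15. Cdc45, Cdc7 and Dbf4 were 2-fold higher by the probe set used and at -0.03, -0.16 and -0.03 by their probe set of median absolute difference.

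The promoters of this list were searched for the E2F motif TTTGGCGC, TTTCCCGC, TTTCGCGC or TTTGCCGC on both strands, in windows of 250 bases before to 50 after each RefSeq gene start (GRCm38.p6). Entries were held for 15 of the 19 licensing genes, 13 of 18 cyclins and kinases, 17 of 20 fork genes and 17 of 18 nucleotide genes, and the others were not searched. The motif was found in 8 of 18 windows of the licensing genes (44.4%), 37.5% of those of cyclins and kinases, 23.8% of those of fork genes and 5.56% of those of nucleotide genes. Over all 32817 promoter windows the share was 2.26%, over expressed genes 3.80%, over genes 2-fold higher 9.25% and over genes 2-fold lower 2.53%. A match describes the letters of a window, not a bound site. The bases before the start are shown for the 3 licensing genes with the largest differences among those whose window holds the motif upstream, with the motif in capitals. They are Mcm5 (chr8:75109259-75109508, plus strand, with 2 overlapping matches on opposite strands), Mcm7 (chr5:138171884-138172133, minus strand) and Cdc6 (chr11:98908001-98908150, plus strand).
Mcm5: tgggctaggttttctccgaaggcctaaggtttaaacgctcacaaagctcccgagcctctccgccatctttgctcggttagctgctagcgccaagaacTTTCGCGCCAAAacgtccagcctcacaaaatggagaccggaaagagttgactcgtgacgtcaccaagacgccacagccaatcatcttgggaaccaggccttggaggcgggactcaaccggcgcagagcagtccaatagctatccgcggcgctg
Mcm7: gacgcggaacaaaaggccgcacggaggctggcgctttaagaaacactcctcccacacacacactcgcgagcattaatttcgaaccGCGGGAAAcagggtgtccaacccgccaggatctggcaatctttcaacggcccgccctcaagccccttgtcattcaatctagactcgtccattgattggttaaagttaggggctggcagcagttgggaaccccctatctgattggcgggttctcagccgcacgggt
Cdc6: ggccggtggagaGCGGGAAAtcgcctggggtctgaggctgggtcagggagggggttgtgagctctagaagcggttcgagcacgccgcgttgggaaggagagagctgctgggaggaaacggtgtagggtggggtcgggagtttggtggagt
The 3 genes differed by 1.92, 1.60 and 1.48 between the arrays.

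At the fork itself all 20 measured genes lay above 0, from 0.23 to 1.47, and 9 were 2-fold higher (median 0.88). Pcna, the sliding clamp, read 10.46 in vehicle and 11.64 after tamoxifen. The primase gene Prim1 read 7.69 and 8.92, against 8.39 and 8.61 for its partner Prim2. The supply of deoxynucleotides was higher at its rate-limiting enzyme: Rrm2, the small subunit of ribonucleotide reductase, read 8.06 and 10.33, 4.83-fold higher, with 3 bright probe sets from 2.04 to 2.40. Its large subunit Rrm1 read 8.12 and 9.60, with a difference of 0.75 as the mean over its probe sets. Purine synthesis was closer to vehicle, with Paics at 10.90 and 10.93 and Ppat at 7.52 and 7.98, so that 6 of 18 nucleotide genes were 2-fold higher (median 0.68).

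Chromosome structure genes were 2-fold higher in 14 of 19 cases and lower in none (median 1.21). The largest differences were of genes that tie sister chromatids and keep DNA methylation: Dscc1, a subunit of the cohesion clamp loader, read 3.54 in vehicle and 6.33 after tamoxifen, although it differed by 1.43 as the mean over its probe sets and by 0.06 by its probe set of median absolute difference. Esco2, the cohesin acetyltransferase, read 5.72 and 8.06, and Hells, a remodeler of methylated chromatin, 6.89 and 9.14. The cohesin core genes themselves differed less, Smc3 by 0.31 and Rad21 by 0.19, in contrast to the condensin genes Smc2 (1.58) and Ncapg (1.69). Mki67, the proliferation marker, read 9.62 and 10.81. In DNA repair 10 of 16 were 2-fold higher and 15 lay above 0 (median 1.09), led by Rad51ap1 (5.75 and 7.76, and 0.92 by its probe set of median absolute difference), with Blm, a helicase, lower (7.72 and 6.48). Brca1 and Clspn were at 1.58 and 1.54 here and at -0.14 and -0.04 by their probe set of median absolute difference.

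Kinetochore genes had the largest median of the 75 lists. Kinetochore and checkpoint genes were 2-fold higher in 16 of 19 cases (median 1.35), from Ndc80, which binds microtubules (4.47 in vehicle and 6.32 after tamoxifen), to Knl1 (5.71 and 5.83). The checkpoint kinase gene Bub1 read 6.45 and 8.16 (0.67 by its probe set of median absolute difference) and Aurkb, the kinase that corrects attachments, 6.14 and 7.81. Spindle and cytokinesis genes were 2-fold higher in 15 of 17 cases (median 1.23): Plk1, the mitotic kinase, read 7.21 and 8.51, and Ect2, which starts cleavage, 7.77 and 9.43. At 12 hours the same 2 lists had medians of -0.44 and -0.59 against the same vehicle array, and at 4.5 days 1.34 and 1.26. Licensing genes had medians of 0.28 and 1.24 at those times. In the list of spindle genes Kif18a, Tpx2, Aurka and Aspm had -0.17, -0.30, -0.04 and -0.24 by their probe set of median absolute difference.

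The CCAAT box, the NF-Y motif, was in 66.7% of the promoter windows of kinetochore genes, 70.6% of those of spindle genes and 72.2% of those of chromosome structure genes. Its share was 37.4% over all promoter windows and 36.7% over those of expressed genes. Over windows of genes 2-fold higher it was 46.3%, and over those of genes 2-fold lower 34.2%. Entries were held for 16 of 19, 15 of 17 and 15 of 19 genes of these lists. Inhibitors of the cycle and targets of p53 gave a median of -0.01 over 18 genes. Cdkn1c (p57), an inhibitor of cyclin-dependent kinases, read 8.52 in vehicle and 6.78 after tamoxifen, and Cdkn2b (p15) 8.73 and 7.73. Cdkn1a (p21), the p53 target that stops the cycle, read 10.89 and 10.92, and Mdm2 8.39 and 8.69.

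Genes that make ribosomes in the nucleolus were higher throughout. All 22 ribosome biogenesis genes lay above 0, from 0.41 to 1.44, and 10 were 2-fold higher (median 0.92). Ncl, nucleolin, read 10.51 in vehicle and 11.95 after tamoxifen. Nop58, a core protein of the particles that methylate ribosomal RNA, read 7.84 and 9.23, and its partner Nop56 8.83 and 10.05, with Fbl, their methyltransferase, at 9.78 and 10.56. Polr1a, the largest subunit of RNA polymerase I, read 6.86 and 7.40. The ribosomal proteins had a median of 0.27 over 10 genes.

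Other genes of protein production leaned the same way by less than 2-fold. Of 19 aminoacyl tRNA synthetase genes all lay above 0, and Vars alone was 2-fold higher (8.41 and 9.51; list median 0.38). Translation factors had a median of 0.43 over 13 genes, cytosolic chaperones 0.50 over 15, and mitochondrial chaperones and import genes 0.59 over 14. The 16 proteasome genes ran from 0.17 to 0.82. Nuclear transport and mRNA-binding genes had a median of 0.73 over 14, with Ranbp1, a regulator of the Ran transport cycle, 2-fold higher (10.01 and 11.07). Myc, the transcription factor that drives such genes, read 7.79 and 8.88, whereas its antagonist gene Mxi1 read 9.12 and 8.51.

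Interferon-stimulated genes were 2-fold higher in 16 of 24 cases and lower in none, with all 24 above 0 and a median of 1.12. The sensors and regulators Irf7 (6.13 in vehicle and 8.22 after tamoxifen), Irf9 (6.80 and 7.87) and Ifih1 (8.10 and 9.12) were among them. Of the antiviral effectors, Ifit1 read 6.07 and 8.14, Ifit3 5.89 and 7.87, Oasl2 6.74 and 8.65, and Rsad2, viperin, 7.82 and 9.18. Usp18, which limits the response, read 5.97 and 7.87. The GTPase genes Mx1 (6.87 and 7.29) and Mx2 (5.34 and 5.73) differed less. Cmpk2, Dhx58 and Parp14 were at -0.03, -0.45 and -0.09 by their probe set of median absolute difference. The list had medians of 0.57 at 12 hours and 1.12 at 4.5 days.

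Promoter entries were held for 16 of the 24 interferon-stimulated genes and 10 of the 15 interferon gamma and guanylate-binding genes, and the others were not searched. The interferon-stimulated response element, searched as GAAA, any 2 bases and GAAA again on both strands, was in 10 of 19 promoter windows of these genes (52.6%) and in 8 of 12 windows of the interferon gamma and guanylate-binding genes (66.7%). It was in 3.43% of all promoter windows, 9.0% of those of genes 2-fold higher and 2.53% of those of genes 2-fold lower. The bases before the start are shown for the 3 interferon-stimulated genes with the largest differences among those whose window holds the element upstream, with the element in capitals. They are Ifit1 (chr19:34640739-34640888, plus strand), Ifit3 (chr19:34583279-34583528, plus strand) and Rsad2 (chr12:26456453-26456602, minus strand).
Ifit1: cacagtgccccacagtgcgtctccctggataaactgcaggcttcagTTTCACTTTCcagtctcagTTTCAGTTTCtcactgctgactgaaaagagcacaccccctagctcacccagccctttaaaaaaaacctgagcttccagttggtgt
Ifit3: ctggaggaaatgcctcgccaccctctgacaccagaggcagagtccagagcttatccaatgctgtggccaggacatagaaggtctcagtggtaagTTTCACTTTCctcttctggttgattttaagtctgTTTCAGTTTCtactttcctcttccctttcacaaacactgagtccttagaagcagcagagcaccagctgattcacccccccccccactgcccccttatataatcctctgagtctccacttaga
Rsad2: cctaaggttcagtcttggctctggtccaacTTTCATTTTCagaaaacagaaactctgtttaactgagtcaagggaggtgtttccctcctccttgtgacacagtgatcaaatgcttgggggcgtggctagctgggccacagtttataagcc
Ifit1 and Ifit3 hold 2 copies each and Rsad2 holds 1, and their nearest copies begin 85, 122 and 120 bases before the start.

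Genes of the interferon gamma type were 2-fold higher in 6 of 15 cases (median 0.99). Nlrc5, the activator of class I genes, read 4.17 in vehicle and 5.89 after tamoxifen. The immunity GTPase genes Gbp3 (6.68 and 8.17), Irgm1 (6.86 and 8.22) and Iigp1 (6.13 and 7.49) were higher too. Cxcl10, a chemokine for T cells, read 5.14 and 6.29, while Irf1 read 8.35 and 8.56 and Ciita, the activator of class II genes, stayed under the filter. Class I presentation genes were all but H2-Q10 above 0 without passing 2-fold (median 0.54), among them B2m (11.88 and 12.49) and Tap1 (6.92 and 7.65). Class II genes had a median of -0.06, with H2-Aa at 10.20 and 9.88.

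Macrophage and monocyte markers were 2-fold higher in 8 of 16 cases and lower in none (median 1.0), with a median level of 7.74 in vehicle and 8.52 after tamoxifen. Ctss, cathepsin S, read 9.22 and 10.83, and Cd68, a lysosomal glycoprotein, 6.23 and 7.78. The 3 chains of complement C1q were alike, with C1qa at 1.06, C1qb at 0.99 and C1qc at 1.11. Defining receptors were not higher: Csf1r read 10.39 and 10.41, Adgre1 6.99 and 7.03, Cx3cr1 5.93 and 5.71, and Ccr2 5.77 and 5.55. The shares of cell number and of RNA per cell in these differences were not tested.

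Markers of other immune cells gave fewer differences. Among 9 neutrophil genes S100a8 and S100a9 (5.52 and 6.63) were 2-fold higher, while Csf3r, Mpo, Elane, Cxcr2 and Ngp stayed under the filter on both arrays. None of 10 T and NK cell genes passed 2-fold, and Cd3e read 5.96 and 5.68. Mast cell genes ran both ways, from Kit (8.15 and 7.26) to the dim protease gene Mcpt1 (3.38 and 4.79). Chemokine genes were 2-fold higher in 7 of 21 cases (median 0.42): Cxcl2, a neutrophil attractant, read 4.27 and 6.01, and the myeloid attractants Ccl2 5.52 and 6.75, Ccl6 8.59 and 9.92 and Ccl9 7.32 and 8.61. The cytokine genes Il1b, Il1a and Tnf were under the filter on both arrays.

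**Figure D4:**
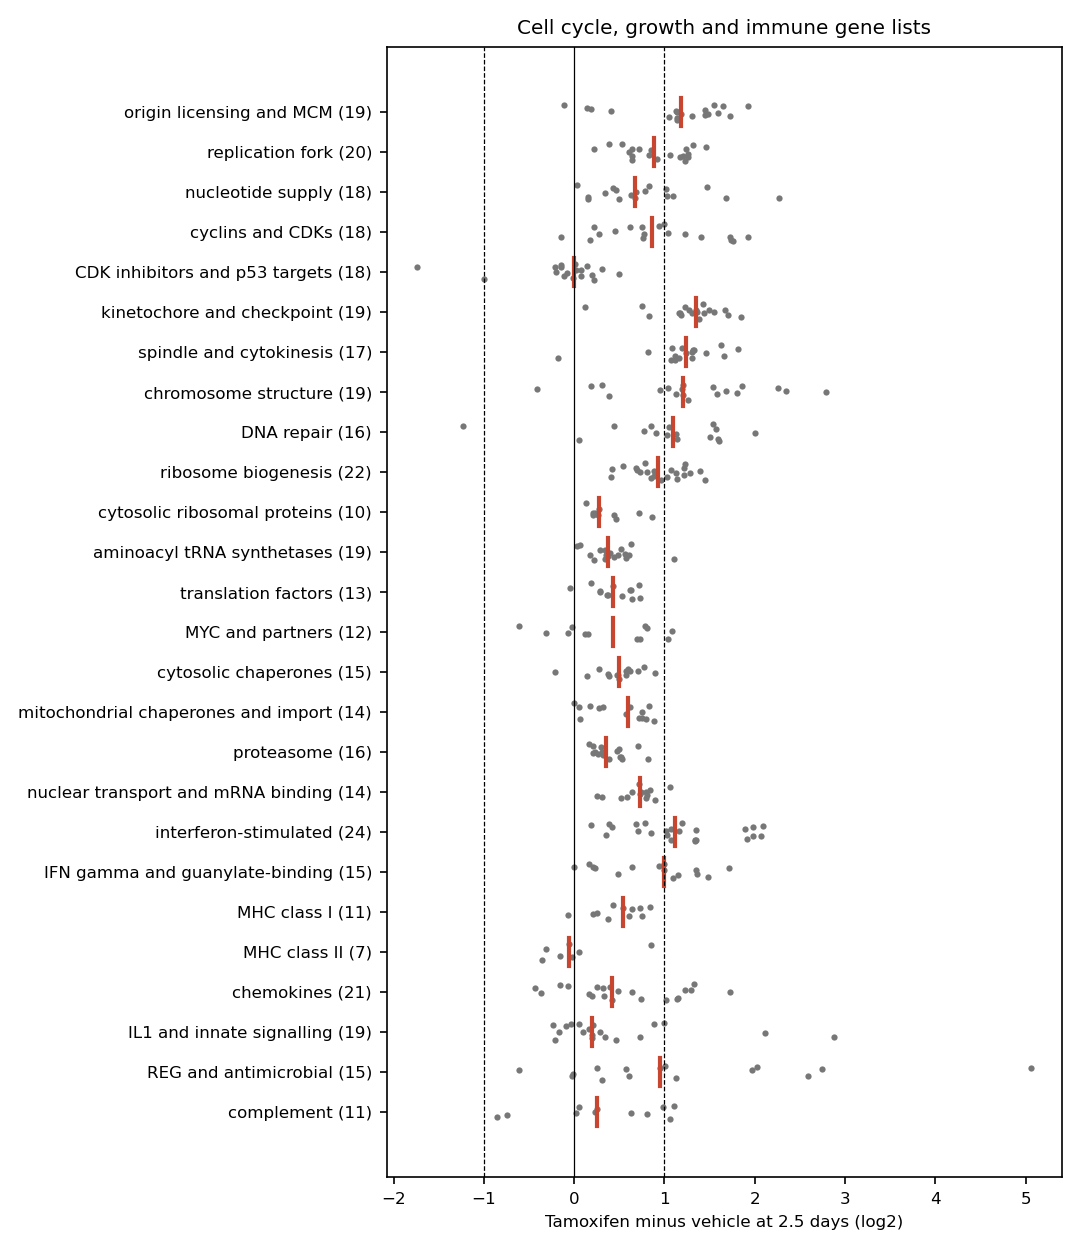
Each grey point is the log2 difference, tamoxifen minus vehicle at 2.5 days, of 1 measured gene of the cell cycle, growth and immune lists, with the number of genes in brackets; red bars are list medians, which are not tests, and dashed lines mark 2-fold. Medians of the licensing, kinetochore, spindle, chromosome structure, DNA repair and interferon-stimulated lists lie past 2-fold. Those of ribosomal proteins, CDK inhibitors, MHC class II, complement, and IL1 and innate signalling lie within 0.30 of 0.

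Folding and export of secreted proteins stayed near vehicle apart from a pair of genes. Over 18 endoplasmic reticulum chaperone and folding genes the median was 0.01, and beside Pdia2 the oxidase gene Ero1b was 2-fold lower (9.34 and 7.86). The main chaperone gene Hspa5 (BiP) read 12.19 and 12.54, Xbp1, the factor that expands the compartment, 12.70 and 12.33, and Dnajb9 9.99 and 9.74. None of 17 translocon and vesicle genes passed 2-fold (median 0.01). Tmed6, a cargo receptor outside these lists, read 12.21 and 9.62, 6.00-fold lower.

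Amino acid stress genes split. Slc7a11 and Psat1 were 2-fold higher, and Phgdh, the entry enzyme of serine synthesis, read 8.80 and 9.79. Aldh1l2, a mitochondrial folate enzyme, read 7.48 and 5.39, and Nupr1, a stress regulator, 11.03 and 9.75. Atf4 itself read 10.61 and 10.67 and Ddit3 (CHOP) 7.63 and 7.34, so that the list had 2 genes higher, 2 lower and a median of 0.11 over 17. The motif TGATGNAA was in 6 of that list's 15 promoter windows and in 3.97% of all windows, with entries for 14 of the 17 genes. Of 15 NRF2 targets 13 lay above 0 (median 0.42), with Gpx2 and Slc7a11 2-fold higher, Srxn1 at 0.97 and Gsr at 0.79, but Nqo1 at -0.14. TGACNNNGC, their motif, was in 31.2% of their windows and 12.4% of all, with entries for 12 of the 15 genes.

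Immediate early genes had a median of 0.57 over 17. Egr1 read 9.21 in vehicle and 11.10 after tamoxifen and Egr2 3.89 and 5.79, while Fos (11.53 and 11.47) and Jun (9.56 and 9.63) were near vehicle. Metallothionein genes Mt1 and Mt2 differed by 0.19 and 0.08. Steap4, a metal reductase, read 7.14 and 8.46, and differed by 0.81 as the mean over its probe sets.

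Mitochondrial energy genes were lower by less than 2-fold. Of 17 oxidative phosphorylation genes 16 lay below 0 (median -0.32), and all of these 16 did after centring on the hybridisation controls. All 12 genes of the tricarboxylic acid cycle lay below 0, from -0.55 for Idh2 to -0.01 for Idh3a (median -0.24), and 10 did after that centring. Cox7a1, an isoform of cytochrome oxidase known from heart and muscle, was the exception in size, at 9.84 in vehicle and 7.13 after tamoxifen. Sdhb read 11.77 and 11.19, and Cycs, cytochrome c, 12.79 and 13.01. These lists had medians of -0.42 and -0.43 at 12 hours and -0.29 and -0.28 at 4.5 days. The motif TCAAGGTCA of the estrogen-related receptors was in 0 of the windows of parietal, oxidative phosphorylation or cycle genes and in 0.424% of all, with entries for 16 of 21, 13 of 17 and 11 of 12 genes. That says only that these letters are not in these windows.

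In fuel use isoforms differed. Ldhb, the lactate dehydrogenase of oxidative tissues, read 11.36 and 9.55, whereas Ldha read 11.98 and 12.11. Fabp3, a fatty acid carrier of muscle and heart, read 10.79 in vehicle with a difference of -2.79, although its other bright probe set differed by -0.21. Fatty acid oxidation had a median of -0.14 over 15 genes: Ppara, the receptor that drives it, read 5.88 and 4.69 (-0.94 as the mean over its probe sets), and Acadm 10.93 and 10.13, while Acot1, an acyl-CoA thioesterase and known PPAR target, read 6.43 and 8.34. Angptl4, another target, was at 1.14 and by its probe set of median absolute difference at -0.31. Cholesterol synthesis leaned higher, with 11 of 12 above 0 (median 0.53) and Idi1 2-fold higher (9.63 and 10.77), whereas fatty acid and triglyceride synthesis had a median of -0.15, with Gpam at 9.90 and 8.92.

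Growth factor signalling held opposite differences among EGF receptor ligands. Egf itself read 7.35 in vehicle and 4.68 after tamoxifen, while Ereg was 3.97-fold higher and Nrg1, neuregulin, read 4.97 and 6.45. Tgfa (8.55 and 8.58) and the receptor genes Egfr (8.35 and 8.20) and Erbb2 (7.51 and 7.60) were near vehicle, and Hbegf read 7.71 and 8.28. None of 18 Wnt and stem cell genes passed 2-fold (median 0.10), with Axin2, a Wnt target, at 6.33 and 6.42 and Ascl2 at 5.27 and 6.23. None of 19 Notch, BMP and hedgehog genes did (median 0.07), with Shh, a parietal cell morphogen, at 11.04 and 10.54. YAP targets and regeneration genes had a median of 0.61 over 12 without any past 2-fold, among them Il33 (9.60 and 10.33), Anxa1 (10.89 and 11.66) and Birc3 (8.14 and 9.08). Circadian genes had a median of 0.12 over 15, and Bhlhe40 differed most, by 0.87.

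Structural genes of the epithelium stayed near vehicle with a few exceptions. Cldn2, a pore-forming claudin, read 8.78 and 10.17 (0.85 as the mean over its probe sets), and Cldn18, the stomach claudin, 12.19 and 12.73. Cldn8 read 7.21 and 5.06 and is not in the claudin list, which had a median of 0.24 over 16. Tubb5, a tubulin, was the single 2-fold higher gene of the keratin and cytoskeleton list (10.21 and 11.43, and 0.97 by its probe set of median absolute difference), and Krt20, a keratin of mature surface cells, read 11.80 and 11.35. Lysosomal genes had a median of 0.02 over 14, with Ctss and Atp6v0d2 2-fold higher and Ctsd at 11.13 and 11.10. Autophagy genes had a median of -0.27 over 13, with Gabarapl1 2-fold lower (9.67 and 8.66, and -0.95 as the mean over its probe sets) and Bnip3 at 10.63 and 9.73.

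Markers of tissue outside the glands were present on both arrays and differed between them. All 9 smooth muscle genes were lower (median -0.62), 8 of them after centring on the hybridisation controls, and none passed 2-fold: Actg2, enteric actin, read 12.42 and 11.46, and Myh11 11.96 and 11.37. Fibroblast genes had a median of -0.07 over 10, with Col1a1 at 9.66 and 10.24, and endothelial genes -0.28 over 10, with Kdr lowest (8.38 and 7.36). Squamous genes, which belong to the forestomach and not the corpus, had a median of -0.02 over 11, with Krt4 (10.89 and 9.73) and Lor (10.32 and 9.21, and -0.92 as the mean over its probe sets) 2-fold lower and Krt14 at 7.66 and 8.26. Ivl, involucrin, read 4.55 and 6.53, but -0.28 was its difference by the probe set of median absolute difference. The squamous list had a median of -3.27 at 12 hours against the same vehicle array. Among adipocyte genes Adipoq read 8.04 and 6.97 and Fabp4 11.33 and 11.06, beside the lower Lpl. The part of these tissues in the differences above was not tested.

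**Figure D5:**
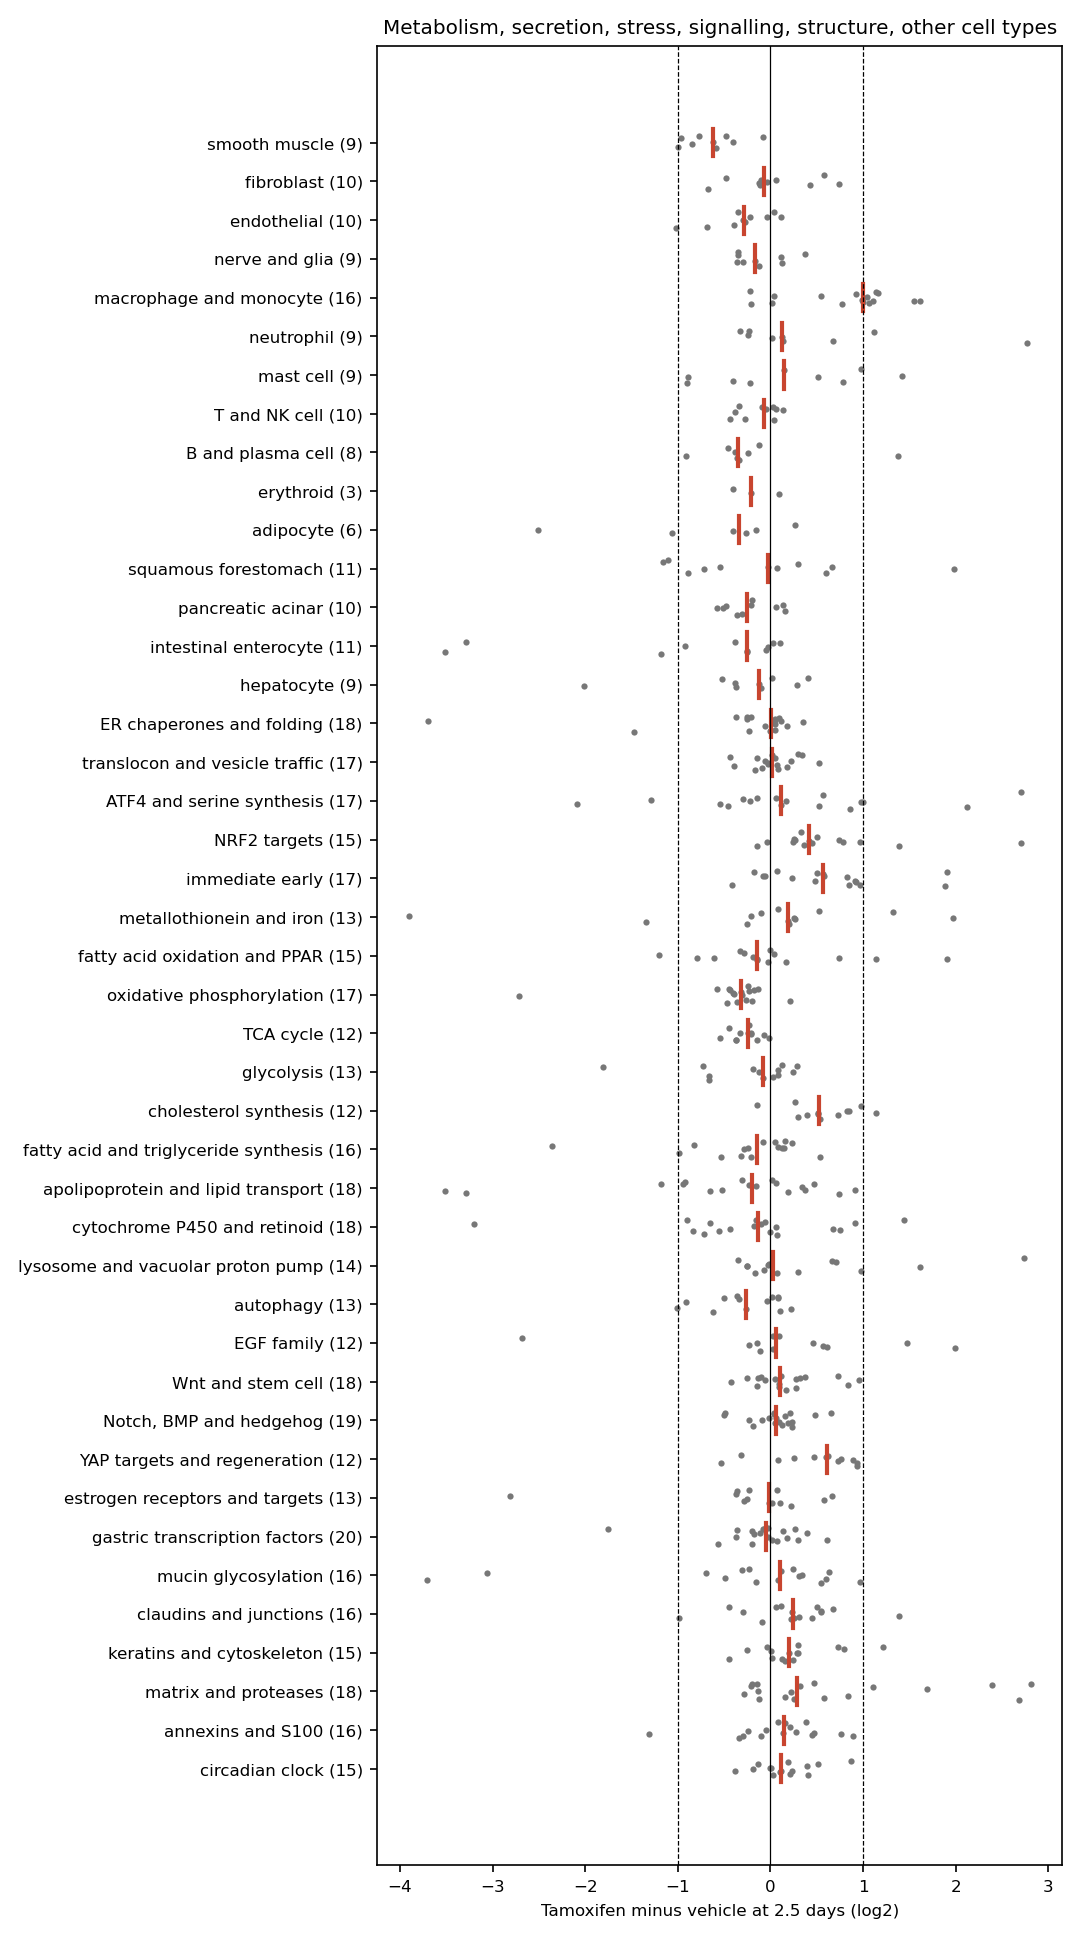
Each grey point is the log2 difference, tamoxifen minus vehicle at 2.5 days, of 1 measured gene of the remaining lists, with the number of genes in brackets; red bars are list medians, which are not tests, and dashed lines mark 2-fold. The macrophage median lies at 1.0 and that of smooth muscle at -0.62, and single genes such as Pdia2, Hamp2, Apoa1 and Atp6v0d2 lie far from the medians of their lists.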

How the data were processed

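Gene expression was measured on 4 arrays, 1 per group, each of RNA pooled from 3 mice, amplified and labelled with biotin per the labels' protocols. The authors deposited log2 values for 45101 probe sets. Per the submitters' processing notes these came from Partek and RMA, with no version given. No label states the log base, which was inferred from values between 2.06 and 14.85. RMA gives all arrays 1 distribution and so hides any shift common to most genes. Groups were taken from the treatment and time labels.

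Control probe sets (64) were left out. By the platform annotation 34945 probe sets had 1 gene symbol, 932 several and 9224 none, and the last 2 kinds were not used. Gene IDs of 34741 probe sets matched the RefSeq table, and no symbol needed updating. Of the 18193 genes, 9010 had several probe sets, and the one with the highest mean over the 4 arrays was used. Differences were taken with pandas 2.3.3 and numpy 2.4.6 in Python 3.11.15, and the genes past 2-fold were counted in each direction. The counting code was run on simulated data, made from the vehicle array with small noise and added changes all larger than the threshold. Such a run checks the code only and says nothing on the error of these arrays. No test across samples was made, since each group has 1 array, and the number of arrays limits the precision.

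The comparison and the gene lists were chosen with earlier results of these data known. The 75 lists hold 1133 genes, of which 1040 were measured and 93 are not analysed here, and 174 of the higher and 44 of the lower genes are in them. Genes were named selectively from the 40 largest differences in each direction without predicted genes and clones. In each list they came from its defining members, members past 2-fold and up to 4 others of large difference. Some members counted as past 2-fold are therefore not named, such as Ckb of the parietal list (-1.47). A few further members were named as counterexamples after their values were seen. No gene had bright probe sets past 2-fold in both directions. Promoters are from RefSeq, GRCm38.p6. Alternatives were the filter, the choice of probe set and the centring.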

Additional observations from a re-analysis of the deposited data

Results flagged for a closer look

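The list of spindle and cytokinesis genes lay on opposite sides of the same vehicle array at different times. Its median difference was 1.23 at 2.5 days and -0.59 at 12 hours. At 12 hours the acinar list had a median of 6.86 and the squamous list one of -3.27 against vehicle. The part of such tissue in the 12-hour spindle median was not tested. The difference between the times was not tested, since each time has 1 pooled array and both share the vehicle array.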

How the results depend on the processing

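No paired analysis was possible because each group has 1 array and no replicate numbers are shared; for the same reason no array could be left out. With the filter at the 75th percentile the count of genes 2-fold higher was 271 instead of 408, over 7769 genes tested instead of 12295. Over the other settings it ran from 272 to 560 and that of lower genes from 169 to 251. None of the 7 list medians past 2-fold changed sign under any setting tried. Read as the mean over probe sets, 4 lists were no longer past 2-fold: parietal at -0.97, spindle at 0.89, DNA repair at 0.69 and interferon-stimulated at 0.93; centring on hybridisation controls put the parietal list at -0.92. Of the 406 genes tried, 257 were past 2-fold, of which 56 were not past it as the mean over probe sets and 61 by the probe set of median absolute difference; of all 406, 174 and 118 moved by more than the control SD without reversing. None past 2-fold changed sign under the mean over probe sets. When each was read from the probe set whose absolute difference was the median, 19 did: Angptl4 (-0.31), Aspm (-0.24), Aurka (-0.043), Brca1 (-0.14), Cckbr (0.24), Cdc45 (-0.031), Cdc7 (-0.16), Chaf1b (-0.56), Clspn (-0.043), Cmpk2 (-0.030), Dbf4 (-0.034), Dhx58 (-0.45), Hamp (0.48), Incenp (-0.60), Ivl (-0.28), Kif18a (-0.17), Lrrn1 (0.17), Parp14 (-0.086) and Tpx2 (-0.30). By that rule a gene with 2 probe sets was always read from the one with the smaller absolute difference. Losses and reversals among such genes are therefore favoured by the rule. Any probe set other than the one used in the main reading is also dimmer on average over the 4 arrays. Why probe sets of the same gene differed was not tested. Leaving out members of the squamous, acinar, smooth muscle and enterocyte lists, an alternative added after seeing the data, gave 407 higher and 233 lower genes, since these lists hold few genes past 2-fold; it does not test the part of those tissues in the other differences.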

Other observations

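The lists described here were drawn up after the values were seen, from genes that stood out among those past 2-fold, and their counts are descriptions only. Genes that break down the branched-chain amino acids valine, leucine and isoleucine in mitochondria were lower as a group. Of 25 measured, none lay above 0 and 11 were 2-fold lower, with a median of -0.85, beside -0.32 for oxidative phosphorylation. Mccc1, a subunit of the leucine pathway carboxylase, read 10.36 in vehicle and 8.55 after tamoxifen. Both E1 subunit genes of the branched-chain dehydrogenase were lower, Bckdha at 9.37 and 7.91 and Bckdhb at 9.68 and 8.19. Oxct1, which uses ketone bodies, read 12.49 and 10.77, and Bckdk, the kinase that turns the dehydrogenase off, 9.38 and 9.28. The list median was -0.75 at 12 hours and -0.99 at 4.5 days.

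Host genes of small nucleolar RNAs, most of them noncoding, were 2-fold higher in 9 of 19 cases and 2-fold lower in none, with a median of 0.93. Snhg3 read 7.19 and 9.01, Snhg1 8.89 and 10.22 and Gas5 9.41 and 10.69, while Snhg18 read 8.29 and 7.58. Myeloid lectins and receptors were 2-fold higher in 17 of 25 cases (median 1.17), such as Ms4a6d (5.36 and 7.72) and Itgax, CD11c (5.68 and 7.59). Fcgr1 read 5.60 and 5.66, but its other bright probe set differed by 1.43. The lowest member, Clec5a, was under the filter and differed by -0.05. Of 18 genes known from heart and striated muscle, 6 were 2-fold lower and none higher (median -0.47). Tnni3, cardiac troponin I, read 10.41 and 7.72 and Slc2a4, the insulin-responsive glucose carrier, 8.98 and 7.75. Actc1 (6.55 and 6.23) and Mb (5.53 and 5.42) were closer to vehicle.

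Pancreatic-type secretory genes were 2-fold lower in 8 of 13 cases, with 2 above 0 (median -1.39), including Cel, a lipase, at 7.46 and 6.06 and Amy1 at 6.80 and 4.44, beside 11.77 and 6.52 at 12 hours. Late cornified envelope genes of squamous epithelium were below vehicle in all 15 cases and 2-fold lower in 6, such as Lce1c (8.60 in vehicle, 3.30 at 12 hours and 7.15 at 2.5 days). The part of tissue at the edges of the dissection in these values was not tested.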
